A study of Mus musculus with 8 samples.

Results

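The 8 genes described here encode receptor chains for the cytokines that drive myeloid cell production: Csf1r, Csf2ra, Csf2rb, Csf2rb2, Csf3r, Il3ra, Il6ra and Il6st. Their chromatin was examined in ATAC-seq peak lists, in which a peak marks DNA that the Tn5 transposase could enter. A region is the union of overlapping peaks from the 8 lists of the series, and a region was assigned to a gene when one of its peaks overlapped the gene body or the 20 kb on either side of it. This gave 67 regions of 123260 in the series: 11 at Csf1r, 3 at Csf2ra, 9 each at Csf2rb and Csf2rb2 with 5 shared between them, 9 at Csf3r, 7 at Il3ra, 17 at Il6ra and 7 at Il6st.

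The cells were sorted from the bone marrow of female mice of a mixed 129Sv4/Jae x B6 background (B6 as labelled, C57BL/6J in the study's methods), aged 4.5 months, with about 10000 cells per reaction. All cells lacked the lineage antigens and carried c-KIT. Those with SCA-1 on the surface (LSK+) hold stem and multipotent progenitors, and those without it (LSK-) hold myeloid progenitors. Both were taken from mice labelled wild type (WT) and from XistΔ/Δ mice, in which floxed Xist, the RNA that silences 1 X chromosome in female cells, is deleted by the Vav-iCre transgene throughout the blood system. The 4 groups held 2 libraries each. The study calls them biological replicates. Whether each was 1 animal or a pool, and whether the WT mice carried the Cre transgene, is not given in the sources used here, and the tests measure the spread between these libraries.

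Cytokine receptors of this family bind a secreted ligand outside the cell and pass the signal to JAK kinases and STAT transcription factors inside it. CSF1R differs in that it is itself a tyrosine kinase, and it is required for the development of monocytes and macrophages. The receptors for GM-CSF, IL-3 and IL-5 each pair a ligand-specific alpha chain, such as CSF2RA or IL3RA, with a common beta chain encoded by Csf2rb. The mouse also carries Csf2rb2, a copy of Csf2rb whose product works with IL3RA only. CSF3R is the receptor for G-CSF and drives the making of neutrophils. IL6RA binds IL-6, and gp130, encoded by Il6st, passes that signal on.

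Each region was given, in each library, the percentile of its strongest peak when the list was ordered by the -log10 p-value of the peak caller MACS2 (100 for the strongest peak of a list). A library without a peak in a region counted as 0 in means. Lists differed in length from 29829 peaks in LSK+ WT replicate 2, the shallowest library, to 91590 in LSK- XistΔ/Δ replicate 1, and the background pileup that stands for depth ran from 0.482 to 3.87 fragments in the same libraries. The 67 regions held a peak in 14 and 22 cases in the shortest lists, LSK+ WT replicate 2 and LSK- WT replicate 2, and in 37 to 52 cases in the other 6 libraries. Of the 67, 35 held a peak in at least 4 libraries, 14 in all 8 and 16 in 1. By the position of the summit, 17 lay within 3 kb of a start site of a member gene, 3 within 3 kb of the start of the neighbouring genes Mrps15 or Oscp1, and 47 were distal. In all, 30 summits lay in introns and 7 in exons of the member genes, and 30 lay outside them. In sorted cell mixtures a stronger peak in each cell and a peak in more cells cannot be told apart.

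The sequences below are those of 6 regions whose values are described in the text. They include 2 regions inside Il6ra. The first was stronger on average in LSK-, and the second separated the genotypes in full lists but not in lists of equal length. The others are 1 inside Csf2rb with peaks in LSK+ lists alone, 1 downstream of Csf2rb that separated the cell types, and 2 upstream of Csf3r seen mostly in LSK-. Each is 200 bases centred on the summit, read from the plus strand of mm10, in lower case. Capitals mark matches on either strand to short core letters of 5 factor families. The letters GAGGAA stood for PU.1, an activator of myeloid genes, and TTGCNNAA for the C/EBP family. Those of RUNX were TGTGGT. The GATA family was searched as AGATAA, and AP-1 as TGANTCA. No matches overlap in the windows shown. A match is a run of letters and not evidence of binding.
Il6ra intron 1, chr3:89911314-89911513: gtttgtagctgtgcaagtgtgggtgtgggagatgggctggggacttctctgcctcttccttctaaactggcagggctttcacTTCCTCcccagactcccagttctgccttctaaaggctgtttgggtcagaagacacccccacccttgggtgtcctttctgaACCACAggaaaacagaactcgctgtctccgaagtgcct
Il6ra intron 9, chr3:89872281-89872480: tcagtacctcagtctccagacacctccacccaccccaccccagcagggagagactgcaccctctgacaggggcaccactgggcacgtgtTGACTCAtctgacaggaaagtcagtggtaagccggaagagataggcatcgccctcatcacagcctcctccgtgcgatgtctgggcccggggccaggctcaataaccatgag
Csf2rb intron 1, chr15:78332074-78332273: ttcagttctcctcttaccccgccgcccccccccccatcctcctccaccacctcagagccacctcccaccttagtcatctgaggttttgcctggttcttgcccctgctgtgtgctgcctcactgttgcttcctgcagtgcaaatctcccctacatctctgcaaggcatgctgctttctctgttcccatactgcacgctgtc
Downstream of Csf2rb, chr15:78368958-78369157: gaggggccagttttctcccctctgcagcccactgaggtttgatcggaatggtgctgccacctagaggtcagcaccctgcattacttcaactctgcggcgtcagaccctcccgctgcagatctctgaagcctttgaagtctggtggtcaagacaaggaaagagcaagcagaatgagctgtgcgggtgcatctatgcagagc
Far upstream of Csf3r, chr4:126017785-126017984: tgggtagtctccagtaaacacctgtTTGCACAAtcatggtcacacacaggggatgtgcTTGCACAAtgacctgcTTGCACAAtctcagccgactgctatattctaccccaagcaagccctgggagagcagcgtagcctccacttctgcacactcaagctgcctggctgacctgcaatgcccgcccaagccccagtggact
Near upstream of Csf3r, chr4:126019038-126019237: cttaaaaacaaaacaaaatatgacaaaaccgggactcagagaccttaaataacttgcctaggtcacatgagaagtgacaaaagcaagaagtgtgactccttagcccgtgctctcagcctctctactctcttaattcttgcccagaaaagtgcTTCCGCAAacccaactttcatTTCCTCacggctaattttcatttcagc

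The far upstream region of Csf3r carried 3 copies of the same C/EBP letters, and the near one carried 1 C/EBP and 1 PU.1 match. The Il6ra intron 1 window held 1 PU.1 and 1 RUNX match, and the Il6ra intron 9 window 1 AP-1 match. The printed windows in and downstream of Csf2rb held none of these letters. In the wider windows of 300 bases, the region downstream of Csf2rb held 1 C/EBP match. The Il6ra intron 9 region there held 1 RUNX match besides its AP-1 match. In windows of 300 bases, PU.1 letters were present in 23 of the 56 member regions outside chromosome 18 (41.1%) and in 37.6% of all regions, and C/EBP letters in 10 (17.9%) against 13.8% of all. RUNX letters were found in 25% of these members and 30.7% of all regions, GATA letters in 16.1% and 21.2%, and AP-1 letters in 12.5% and 11.2%.

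The largest percentile difference between the cell types among the 67 regions was inside Il6ra. A region at chr3:89869357-89869984, in the 3′ UTR of the last exon of Il6ra and 43400 bp downstream of its start, was far stronger in LSK+ than in LSK- libraries. Its percentiles, given here and below as replicate 1 then replicate 2, were 89.4 and 69.0 for LSK+ WT and 92.2 and 78.5 for LSK+ XistΔ/Δ. They were 9.08 and 9.93 for LSK- WT and 17.0 and 23.3 for LSK- XistΔ/Δ, so the lowest LSK+ library lay far above the highest LSK- library. In each library the fragments at the summit were also set against that library's own background pileup. The LSK+ libraries held 67.5, 66.4, 72.6 and 74.9 fragments per background fragment (70.3 ± 4.05, SD, n = 4), and the LSK- libraries held 11.5, 12.1, 9.31 and 14.4 (11.8 ± 2.07, SD, n = 4). The ratio of these means was 5.95. The same ratio was 1.06 to 2.27 at the other 13 member regions with a peak in all 8 libraries and had a median of 1.31 over all 21360 such regions, with 2.63 at the 95th percentile. Per background fragment LSK+ was thus higher at most regions, so these ratios are read against that median.

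**Figure D1:**
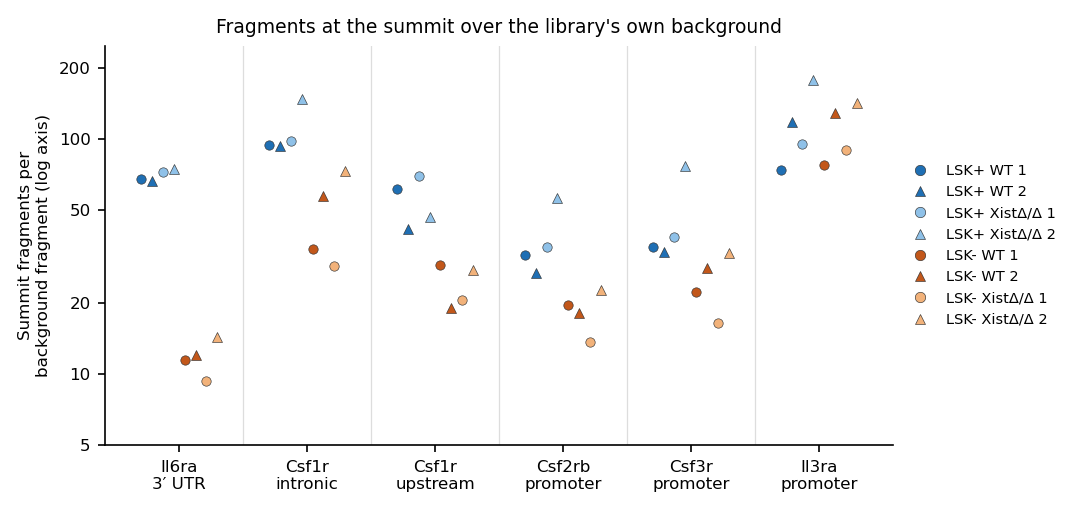
Fragments at the peak summit divided by the library's own background pileup (log axis) at 6 regions, 1 point per library, colored by group with circles for replicate 1 and triangles for replicate 2. At the Il6ra 3′ UTR region the 4 LSK+ libraries lie between 66.4 and 74.9 and the 4 LSK- libraries between 9.31 and 14.4. Of the 6 regions only the Il3ra promoter has overlapping cell types on this scale. The 6 are a choice from the 14 member regions with a peak in all 8 libraries. The cell types overlap at every one of those not shown, among them the promoters of Il6ra, Il6st and Csf2ra. The share of all regions without overlap on this scale is not given, and LSK+ was higher at most regions.

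The difference was tested with limma on the log2 of the quantile-normalized fold enrichment, with terms for cell type and genotype, over the 21360 regions with a peak in all 8 libraries. At the Il6ra 3′ UTR region the LSK- minus LSK+ difference was -1.37 on the log2 scale (SE 0.158, limma adjusted p = 0.0178), and 9 of the 21360 regions had a smaller p. It was the only one of the 14 members tested that passed an adjusted p of 0.05, where 0.908% of all regions passed with LSK+ higher and 0.52% with LSK- higher. With the replicate number as a block the limma adjusted p was 0.000769, and 7.12% of all regions then passed with LSK+ higher and 5.03% with LSK- higher. Without the block, the limma adjusted p rose to 0.0944 without LSK+ WT replicate 1, 0.0820 without LSK+ XistΔ/Δ replicate 1, 0.0669 without LSK+ XistΔ/Δ replicate 2, 0.0978 without LSK- XistΔ/Δ replicate 1 and 0.0507 without LSK- XistΔ/Δ replicate 2. With the block it ranged from 0.00114 to 0.00722 over the 8 fits that left out 1 library each, and the difference from -1.49 to -1.27. The 300-base window around this summit held 3 RUNX, 1 PU.1 and 1 C/EBP match.

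**Figure D2:**
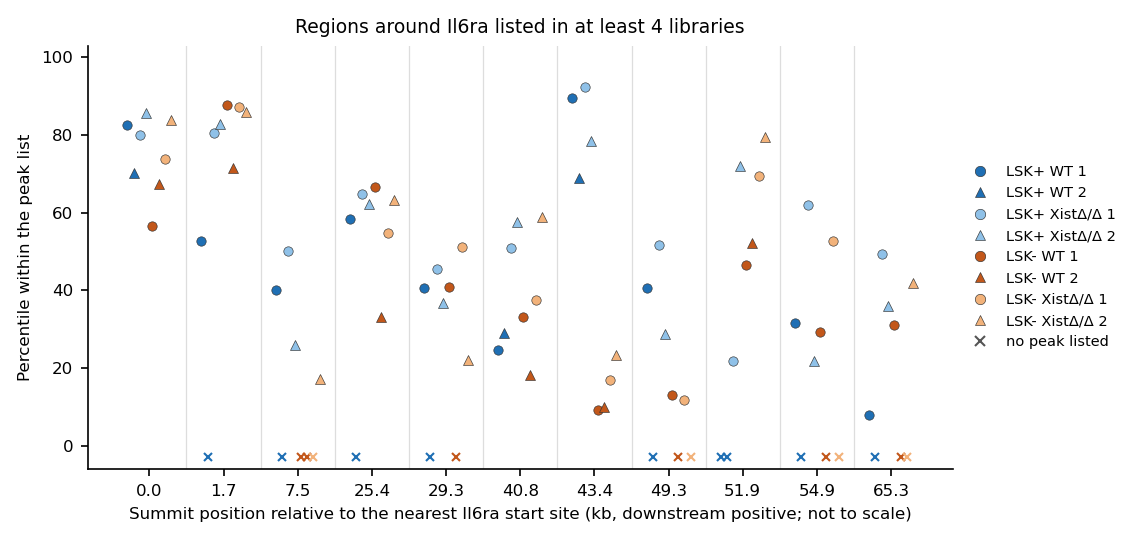
Percentile within the peak list (0 to 100) for the 11 regions around Il6ra with a peak in at least 4 libraries, ordered by position along the gene, 1 point per library and a cross where no peak was listed. The region 43400 bp downstream of the start separates the LSK+ libraries (69.0 to 92.2) from the LSK- libraries (9.08 to 23.3), and the region in intron 1 sits at 71.4 to 87.7 in the LSK- libraries.

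Other Il6ra regions went the other way or did not separate the cell types. The intron 1 region, at chr3:89911169-89911751 and 1748 bp inside the gene, had percentiles of 87.7 and 71.4 for LSK- WT and 87.1 and 86.0 for LSK- XistΔ/Δ. LSK+ libraries had 52.7 and no peak for WT, and 80.6 and 82.8 for XistΔ/Δ. The highest LSK+ libraries thus overlapped the lowest LSK- library. The mean difference was 29.0 points in favour of LSK- (exact permutation p = 0.0556, two-sided, the smallest that the 36 assignments allow). In a limma fit over the regions with a peak in at least 6 libraries, which leaves the missing LSK+ WT replicate 2 value missing, the log2 difference was 0.79 (SE 0.186, limma adjusted p = 0.0666), and 0.75 with the replicate block (limma adjusted p = 0.0138). Beyond the 3′ end of Il6ra, a region at chr3:89861157-89861598 had 46.5 and 52.2 for LSK- WT and 69.5 and 79.5 for LSK- XistΔ/Δ. Its LSK+ WT libraries had no peak, and the LSK+ XistΔ/Δ libraries had 21.8 and 71.9, the latter within the range of the LSK- libraries. The Il6ra promoter region, 40 bp upstream of the start, had 82.5 and 70.1 for LSK+ WT, 80.1 and 85.5 for LSK+ XistΔ/Δ, 56.6 and 67.3 for LSK- WT and 73.8 and 83.9 for LSK- XistΔ/Δ, with overlapping cell types. The strongest distal region of Il6ra, in intron 3, had 58.3 and no peak for LSK+ WT, 64.8 and 62.1 for LSK+ XistΔ/Δ, 66.7 and 33.3 for LSK- WT and 54.8 and 63.2 for LSK- XistΔ/Δ, and these too overlapped.

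The beta chain genes gave the other region that separated the cell types. It lay outside genes at chr15:78368533-78369439, 43011 bp downstream of the Csf2rb start and 19711 bp from the nearest start of another gene, Tex33. The LSK- libraries had percentiles of 67.8 and 65.3 for WT and 68.2 and 86.1 for XistΔ/Δ. The LSK+ libraries had 19.3 and no peak for WT, and 33.5 and 51.2 for XistΔ/Δ, so no LSK+ library reached the lowest LSK- library. The difference of means was 45.8 points (exact permutation p = 0.0556, two-sided). In the limma fit over regions with a peak in at least 6 libraries, with LSK+ WT replicate 2 missing, its log2 difference was 0.99 (SE 0.198, limma adjusted p = 0.0444), and 0.93 with the replicate block (limma adjusted p = 0.00578). In those fits 0.964% and 5.9% of all regions passed with LSK- higher, and 0.941% and 7.39% with LSK+ higher.

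The strongest distal region of both beta chain genes lay between them, 4777 bp upstream of Csf2rb. It had 77.9 and no peak for LSK+ WT, 82.6 and 72.8 for LSK+ XistΔ/Δ, 69.4 and 48.99 for LSK- WT and 75.1 and 70.7 for LSK- XistΔ/Δ, with overlapping cell types. A region in the first intron of most annotated Csf2rb transcripts, 6127 bp from the start, was listed in LSK+ libraries and in no LSK- library. It had 57.3 and no peak for LSK+ WT and 72.4 and 53.9 for LSK+ XistΔ/Δ, with 28, 48 and 27 fragments at the summits. In intron 1 of the longer transcript, at the Csf2rb promoter, the percentiles were 66.9 and 33.7 for LSK+ WT, 75.6 and 72.3 for LSK+ XistΔ/Δ, 50.5 and 37.9 for LSK- WT and 58.4 and 45.7 for LSK- XistΔ/Δ. Here 3 of the 4 LSK+ libraries lay above every LSK- library, and LSK+ WT replicate 2 lay below every one. With lists cut to the 29829 strongest peaks of each library, the 4 LSK+ libraries stood at 29.7, 33.7, 32.5 and 41.3 and the only LSK- library left with a peak, WT replicate 2, at 21.7. The limma log2 difference at this promoter was -0.25 (SE 0.163, limma adjusted p = 0.564).

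Csf2rb2 and Csf2rb lie in opposite orientation and were near-identical in the windows compared, so peaks at one may not be fully told from peaks at the other. How many reads could be placed at a single copy was not measured. Over 251 bases around their promoter summits the sequences were 95.2% identical, and over 264 bases at a pair of regions between the genes 96.6%. The pair is shown because reads from such copies can align to either place, and those of low mapping quality were removed. It is given on the plus strand, where one resembles the reverse complement of the other, and no motif match fell in either.
Between the genes, nearer Csf2rb2, chr15:78312504-78312703: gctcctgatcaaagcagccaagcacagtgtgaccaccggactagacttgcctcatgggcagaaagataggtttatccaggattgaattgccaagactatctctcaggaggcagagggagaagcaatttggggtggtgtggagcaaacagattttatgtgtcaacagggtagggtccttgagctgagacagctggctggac
Between the genes, nearer Csf2rb, chr15:78318933-78319132: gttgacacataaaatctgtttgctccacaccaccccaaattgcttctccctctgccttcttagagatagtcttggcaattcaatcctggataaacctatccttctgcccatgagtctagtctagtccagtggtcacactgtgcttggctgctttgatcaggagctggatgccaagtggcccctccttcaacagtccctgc
The region nearer Csf2rb2 had peaks in LSK- libraries at percentiles of 11.7 in WT replicate 1 and 41.4 and 15.5 for XistΔ/Δ, and the one nearer Csf2rb at 6.64 in WT replicate 1 and 10.4 for XistΔ/Δ replicate 1. No LSK+ library had a peak at either. The Csf2rb2 promoter had 66.4 and no peak for LSK+ WT, 69.0 and 52.7 for LSK+ XistΔ/Δ, 51.4 and no peak for LSK- WT, and 47.5 and 46.3 for LSK- XistΔ/Δ. Of the 8 genes, 6 were found in the RefSeq promoter table. RefSeq gives the 250 bases before the Csf2rb2 start, chr15:78305722-78305971 on the minus strand of GRCm38.p6, in which 1 PU.1 match is in capitals.
Csf2rb2 upstream: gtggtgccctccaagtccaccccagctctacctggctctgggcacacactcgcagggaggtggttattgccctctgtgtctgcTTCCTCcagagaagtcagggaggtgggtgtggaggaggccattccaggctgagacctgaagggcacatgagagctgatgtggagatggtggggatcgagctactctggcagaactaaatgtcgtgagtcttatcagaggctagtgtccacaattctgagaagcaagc
Among promoters in RefSeq, 23.3% hold PU.1 letters in such a window.

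**Figure D3:**
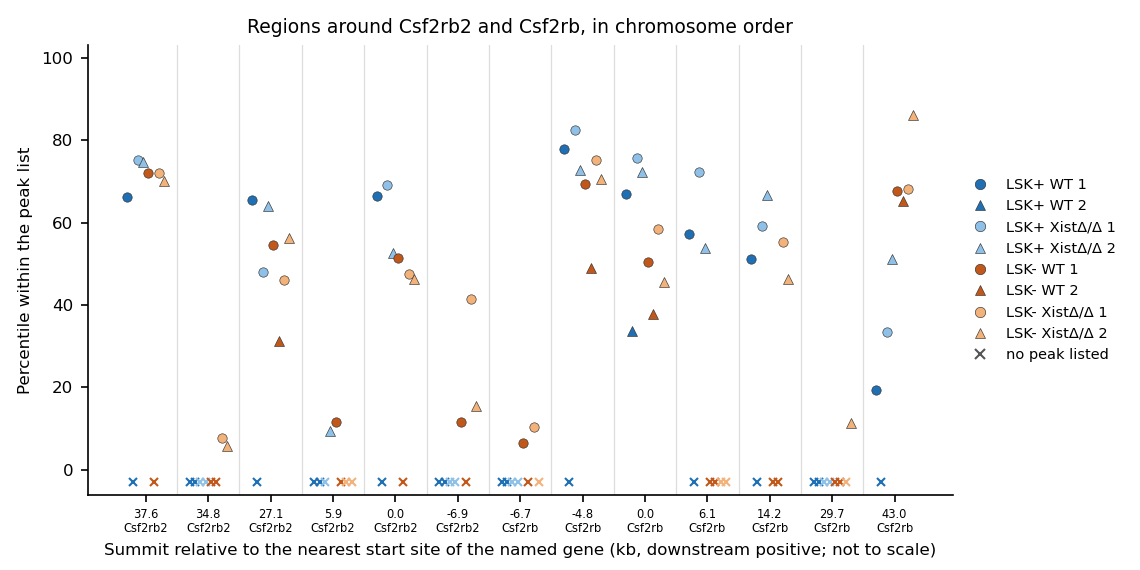
Percentile within the peak list (0 to 100) at the 13 regions around Csf2rb2 and Csf2rb in chromosome order, 1 point per library and a cross where no peak was listed. The region 43011 bp downstream of Csf2rb holds the 4 LSK- libraries at 65.3 to 86.1 above the LSK+ libraries, and the region 6127 bp inside Csf2rb holds peaks in LSK+ libraries.

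At Csf1r the strongest region was not the start site but an early intron, where an intronic enhancer is known. The region at chr18:61108081-61109109 had its summit in intron 2 of the transcript of 22 exons and intron 1 of that of 21, and 2825 bp downstream of the nearer start, inside the 3 kb that count as promoter-proximal. It had percentiles of 95.5 and 81.2 for LSK+ WT, 96.6 and 90.8 for LSK+ XistΔ/Δ, 73.4 and 80.01 for LSK- WT and 79.6 and 85.9 for LSK- XistΔ/Δ. LSK+ exceeded LSK- in each of the 4 same-numbered pairs, with LSK- minus LSK+ from -22.1 to -1.15 points, but LSK+ WT replicate 2 fell between the LSK- libraries. The LSK- minus LSK+ difference was -11.3 points (exact permutation p = 0.0556, two-sided, and 0.125 within pairs, each the smallest possible). In lists of equal length the groups no longer overlapped, with 90.5, 81.2, 90.5 and 80.6 in LSK+ and 36.6, 74.8, 37.3 and 70.5 in LSK-, a difference of -30.9. The limma log2 difference was -0.38 (SE 0.156, limma adjusted p = 0.301, and 0.0849 with the replicate block). Fragments per background averaged 108 ± 26.2 in LSK+ and 48.4 ± 20.8 in LSK- (SD, n = 4 each), a ratio of 2.24.

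The start site of Csf1r itself had a peak in the LSK- XistΔ/Δ libraries only, at percentiles of 24.9 and 21.9. The strongest distal region of Csf1r, 14663 bp upstream, had 88.8 and 57.1 for LSK+ WT, 92.5 and 68.7 for LSK+ XistΔ/Δ, 72.8 and 42.1 for LSK- WT and 74.5 and 64.3 for LSK- XistΔ/Δ. Its fragments per background were 41.5 to 69.8 in LSK+ and 19.1 to 29.2 in LSK-, which did not overlap. The ratio of the means was 2.27, against the median of 1.31 over all regions with a peak in every library. Its limma log2 difference was -0.29 (SE 0.198, limma adjusted p = 0.597). Near the 3′ end, a region that overlaps the 3′ UTR of Csf1r and of the converging gene Hmgxb3 had 52.5 and 46.6 for LSK- WT and 57.0 and 68.2 for LSK- XistΔ/Δ. LSK+ libraries had 28.3 and no peak for WT and 51.9 and 47.1 for XistΔ/Δ. The difference of 24.2 points in favour of LSK- (exact permutation p = 0.0556, two-sided) came with overlapping libraries.

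The alpha chains of the GM-CSF and IL-3 receptors had strong promoters in both cell types. The Csf2ra promoter had 95.3 and 92.5 for LSK+ WT, 97.9 and 93.9 for LSK+ XistΔ/Δ, 96.9 and 91.6 for LSK- WT and 96.5 and 93.3 for LSK- XistΔ/Δ. The cell types differed there by -0.323 points, less than the spread between replicates, and by 0.08 (SE 0.150, limma adjusted p = 0.894) on the log2 scale. A region 16467 bp upstream of Csf2ra had 93.1 and 57.4 for LSK+ WT, 91.6 and 79.7 for LSK+ XistΔ/Δ, 85.1 and 31.3 for LSK- WT and 85.6 and 60.5 for LSK- XistΔ/Δ, and replicate 1 exceeded replicate 2 in every group. The Il3ra promoter, 574 bp upstream of the start, had 82.3 and 81.2 for LSK+ WT, 92.3 and 91.6 for LSK+ XistΔ/Δ, 91.0 and 91.1 for LSK- WT and 95.4 and 93.0 for LSK- XistΔ/Δ. LSK- was higher in all 4 same-numbered pairs by 1.40 to 9.94 points (mean 5.79, exact permutation p = 0.0556, two-sided). The limma log2 difference was 0.34 (SE 0.217, limma adjusted p = 0.559, and 0.0962 with the block). The 6 other Il3ra regions, all intronic, had peaks in 1 to 4 libraries. The strongest distal one, 5884 bp inside the gene, had peaks in the replicate 1 libraries only, at 1.41 and 28.0 in LSK+ (WT, XistΔ/Δ) and 30.4 and 41.1 in LSK-.

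Csf3r had a moderate promoter and upstream regions seen mostly in LSK-, which were weak in most libraries. Its promoter had 65.2 and 44.5 for LSK+ WT, 74.7 and 80.2 for LSK+ XistΔ/Δ, 47.2 and 58.7 for LSK- WT and 56.0 and 65.8 for LSK- XistΔ/Δ, with overlapping cell types (limma log2 difference -0.22, SE 0.175, limma adjusted p = 0.663). The far upstream region printed above, 6665 bp before the start, had no peak in 3 LSK+ libraries and 35.5 in LSK+ XistΔ/Δ replicate 2, against 12.1 in LSK- WT replicate 2 and 25.9 and 70.4 for LSK- XistΔ/Δ. The near region, 5412 bp before the start, had peaks at 22.5 in LSK- WT replicate 1 and 18.9 and 21.8 for LSK- XistΔ/Δ, with 16, 25 and 17 fragments, and no peak in LSK+. At such counts the absence of a peak from a shallow list is not the absence of open chromatin.

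Il6st, which encodes the shared gp130 chain, was open in both cell types. Its promoter had 82.0 and 85.9 for LSK+ WT, 85.0 and 92.9 for LSK+ XistΔ/Δ, 72.0 and 86.6 for LSK- WT and 90.9 and 91.0 for LSK- XistΔ/Δ, with no separation (limma log2 difference 0.04, SE 0.221, limma adjusted p = 0.972). A distal region inside the neighbouring receptor gene Il31ra, 55117 bp from the Il6st start, had 34.9 to 77.8 over the 8 libraries. Another one there, 47398 bp from the start, had peaks at 38.0, 26.2 and 17.0 in 3 LSK+ libraries and none in LSK-.

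**Figure D4:**
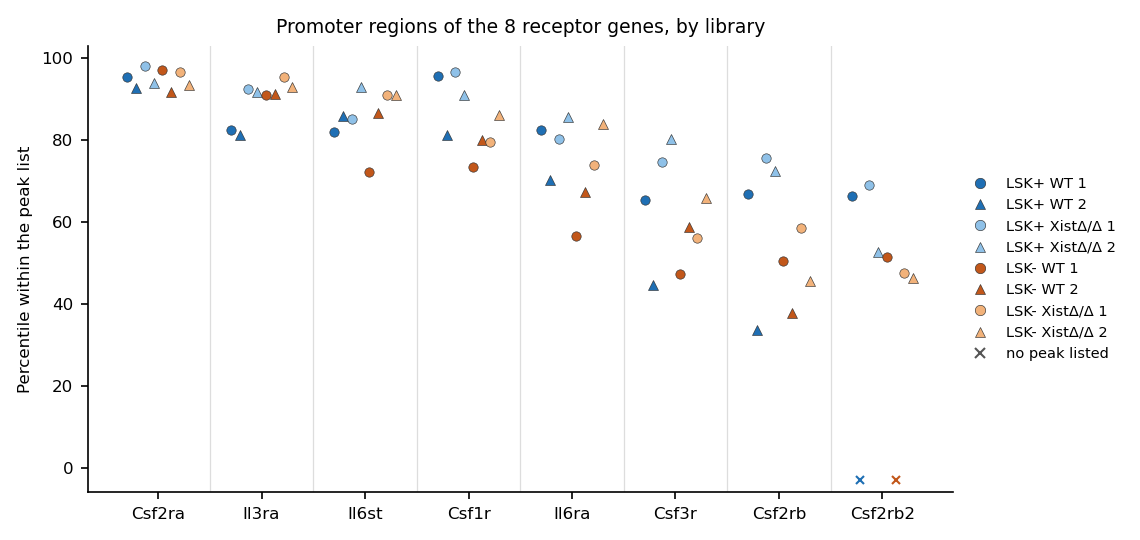
Percentile within the peak list (0 to 100) at the promoter region of each of the 8 genes, ordered by the mean over libraries, 1 point per library and a cross where no peak was listed. Csf2ra lies at 91.6 to 97.9 in all libraries, and Csf2rb2 has no peak in the WT replicate 2 library of either cell type. For Csf1r the region shown is the intronic one, within 3 kb of a start, and not the start site itself.

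Between the 8 promoters the order was much the same in every group. Csf1r is ranked and matched here by its intronic region, 2825 bp inside the gene. Its start site had a peak in the LSK- XistΔ/Δ libraries only. Csf2ra was first and Csf3r, Csf2rb and Csf2rb2 were the last 3 in all 4 groups. In LSK+ WT the means were 93.9 ± 1.99 for Csf2ra, 88.3 ± 10.2 for Csf1r, 83.9 ± 2.77 for Il6st, 81.7 ± 0.813 for Il3ra, 76.3 ± 8.75 for Il6ra, 54.9 ± 14.6 for Csf3r, 50.3 ± 23.5 for Csf2rb and 33.2 ± 46.9 for Csf2rb2 (SD, n = 2 each). The only neighbours in that order whose 2 libraries did not overlap were Il6ra and Csf3r. In LSK- WT, Csf1r stood at rank 4 with 76.7 ± 4.66, behind Il3ra at 91.1 ± 0.0419 and Il6st at 79.3 ± 10.3 (SD, n = 2 each), and overlapped Il6st. The neighbours without overlap were Csf2rb and Csf2rb2 in LSK+ XistΔ/Δ, Csf2ra and Il3ra, Il3ra and Il6st, and Csf1r and Il6ra in LSK- WT, and Il3ra and Il6st, Il6st and Csf1r, and Il6ra and Csf3r in LSK- XistΔ/Δ. All other neighbours overlapped. Percentiles rank a peak against all others of its list, so this order is one of peak significance and not of gene expression. The genes whose promoters had the percentile pattern closest to each member over the 8 libraries, of 16209 compared, were Cyth4 for Csf1r (mean difference 2.13 points), Mpdu1 for Csf2ra (0.682), Eng for Csf2rb (4.70), Lst1 for Csf2rb2 (3.86), Elmo1 for Csf3r (4.37), Mtm1 for Il3ra (1.06), Sybu for Il6ra (2.27) and Parn for Il6st (1.53).

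Counted over all members, the cell types separated at few regions. Of the 35 regions with a peak in at least 4 libraries, 1 had all 4 LSK- libraries above all 4 LSK+ libraries (the region downstream of Csf2rb), where 7.28% of all 60447 such regions did. The reverse held for 1, the Il6ra 3′ UTR region, where 4.18% of all regions did. LSK+ WT replicate 2 decided much of this count: without it, 7 of 35 members had LSK+ higher, against 16.1% of all regions, among them the promoters of Csf2rb and Csf2rb2 and the Csf1r intronic region. Without LSK- XistΔ/Δ replicate 2 it was 2, against 4.95%. With LSK- higher there were 4 of 35 without LSK- WT replicate 2, against 14.8% of all regions, and 2 without LSK+ XistΔ/Δ replicate 2, against 10.7%. In lists of equal length, 3 members had LSK+ higher (the Il6ra 3′ UTR, Csf2rb promoter and Csf1r intronic regions; 6.39% of all regions) and 1 had LSK- higher (5.33%). The median LSK- minus LSK+ difference of the members was -0.411 points, against 0.946 over all regions. Among the 8 promoters it was -9.19 points, with 1 of 8 above 0, against 1.21 points and 62.8% above 0 over 13165 promoters. Csf1r is counted there by its intronic region (-11.3 points). Its start site, with peaks in 2 LSK- libraries alone, had 11.7 points. Peaks in LSK- libraries only were found at 20 of the 67 regions, of which 2 had peaks in at least 3 libraries, and peaks in LSK+ libraries only at 8. Over all regions these shares were 26.5% and 18.2%.

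**Figure D5:**
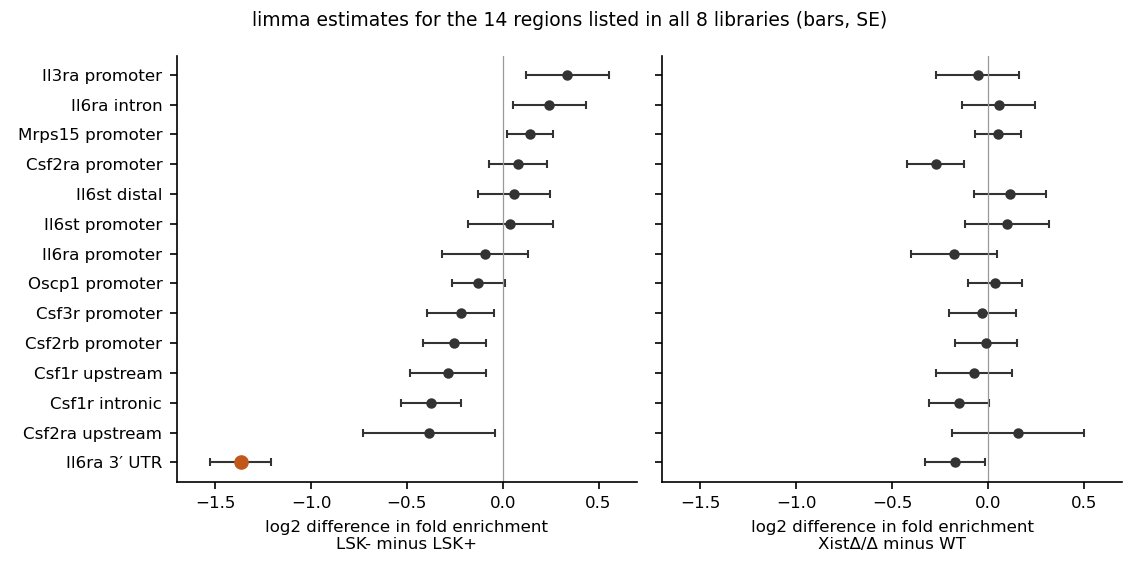
The limma estimates of the log2 difference in fold enrichment (dots) with their SE (bars) for the 14 member regions with a peak in all 8 libraries, for cell type on the left and genotype on the right. Only the Il6ra 3′ UTR region, in orange, passes an adjusted p of 0.05 for cell type (log2 difference -1.37), and every genotype estimate lies within 0.273 of 0.

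To ask whether loss of Xist altered these loci, XistΔ/Δ and WT libraries were compared across both cell types. XistΔ/Δ percentiles were higher than WT at 34 of 35 member regions, with a median difference of 15.7 points, and at 95.3% of all regions, with a median of 12.7. XistΔ/Δ lists were longer than the WT list of the same cell type and number in 4 of 4 cases, and a full-list percentile rises with list length. The median over the 8 promoters, with Csf1r by its intronic region, was 10.0 points with 8 of 8 above 0. Over 13165 promoters it was 6.77 points, with 96.9% above 0. In lists of equal length the median over the 8 promoters was -0.817 points. The part of list length in the genotype difference was not tested. All 4 XistΔ/Δ libraries lay above all 4 WT libraries at 2 members, where 6.58% of all regions did, and the reverse held at 0 (0.00496% of all regions). The members were the Il3ra promoter, whose values are given above, and the Il6ra intron 9 region at chr3:89872258-89872696. The latter had 24.6 and 29.0 for LSK+ WT, 50.9 and 57.6 for LSK+ XistΔ/Δ, 33.0 and 18.1 for LSK- WT and 37.5 and 58.8 for LSK- XistΔ/Δ. Its limma log2 difference for XistΔ/Δ minus WT was 0.06 (SE 0.191). The count rose to 7 without LSK- WT replicate 1 (16.4% of all regions), 6 without LSK+ WT replicate 1 (13.7%), 5 without LSK+ XistΔ/Δ replicate 1 (12.8%), 4 without LSK- XistΔ/Δ replicate 1 (8.43%) and 3 without LSK- XistΔ/Δ replicate 2 (9.97%). With lists of equal length neither separated the genotypes, and 0 members did (0.223% of all regions with XistΔ/Δ higher and 0.175% with WT higher).

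In limma, 0 of the 14 member regions and 0 of 21360 regions in all differed between XistΔ/Δ and WT at an adjusted p of 0.05 (0% in either direction). At an unadjusted p under 0.05 there were 0 members and 518 regions (2.43%). The largest member estimate was -0.27 on the log2 scale at the Csf2ra promoter (SE 0.150, limma adjusted p = 1). At the Csf1r intronic region it was -0.15 (SE 0.156), at the Il6ra 3′ UTR region -0.17 (SE 0.158) and at the Il3ra promoter -0.05 (SE 0.217), each with a limma adjusted p of 1. The term for a different genotype effect in the cell types passed at 0 of 14 members and 0 of 21360 regions. Differences of this size or smaller could not be told from the spread between replicates here.

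The other genes of the pathway had no shift in common between the cell types. Of 7 ligand genes, 5 had a promoter region, and Il34 and Il5 had none. Of the 4 in at least 4 libraries, Csf1, Csf2, Csf3 and Il6, 0 separated the cell types. All 9 further receptor genes of these families had a promoter region in at least 4 libraries, and 1 of them, Epor, was higher in LSK-, where 2.16% of all promoters were higher in LSK- and 2.39% higher in LSK+. Epor, the erythropoietin receptor, had 75.6 and 35.97 for LSK+ WT, 68.5 and 85.4 for LSK+ XistΔ/Δ, 90.9 and 87.3 for LSK- WT and 95.1 and 94.5 for LSK- XistΔ/Δ, and its limma adjusted p was 0.508. Of the 18 signaling genes, from Jak1 to Pim1, all had a promoter region and 0 separated the cell types. Stat3, the main STAT of IL-6 and G-CSF signaling, stood at 98.5 to 99.8 in all 8 libraries. XistΔ/Δ was higher without overlap at 0 ligand genes, at Il11ra1 among the further receptors and at Socs1, a feedback inhibitor of JAK kinases, among the signaling genes, against 8.33% of all promoters, and WT was higher at 0 of them (0.0076% of all promoters).

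Markers of the sorted populations were checked at the same time. Of 7 stem and multipotent markers in at least 4 libraries, 0 were higher in LSK-. Ly6a, which encodes the SCA-1 antigen of the sort, had a promoter peak in LSK- XistΔ/Δ replicate 1 alone (29.6). Of 7 granulocyte-monocyte markers, 0 separated the cell types. Among the erythroid and megakaryocyte markers, Epor was higher in LSK- as given above. Gata1 and Hbb-bt had a peak in 4 of 4 LSK- libraries and 0 of 4 LSK+ libraries, so that they met the minimum of 4 libraries through LSK- alone and their separation is not counted. Other markers of the list differed the other way in percentile, with LSK- minus LSK+ at -18.3 points for Pf4 (limma log2 difference -0.59, limma adjusted p = 0.105), -4.13 for Klf1 (-0.66, limma adjusted p = 0.265) and -0.417 for Itga2b (0.19, limma adjusted p = 0.786). The summed percentiles of the 7 genes on this list were 247 to 355 in LSK+ libraries and 361 to 526 in LSK- libraries, and Hba-a1 had a peak in 1 library. These sums include Gata1 and Hbb-bt, which added to LSK- libraries alone, so the order of the sums is not read as a result. Of 4 lymphoid and 4 mature myeloid markers in at least 4 libraries, 0 separated the cell types, and Cd3e, Cd4 and Ly6g had no promoter peak in any list. The erythroid and megakaryocyte list thus had no direction in common, and its part in the differences at Il6ra and Csf2rb was not tested.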

How the data were processed

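ATAC-seq was measured in 8 libraries, 2 for each of 4 groups, with the group and replicate number read from the sample titles. The authors trimmed reads with Trim Galore, aligned them to mm10 with Bowtie2 2.3.5.1, removed mitochondrial reads and reads of low mapping quality with SAMtools 1.10, and called peaks per library with MACS2 2.2.7.1 from paired-end fragments (versions per the submitters' processing notes). No control library, duplicate removal or Tn5 shift is stated for these lists, and a Tn5 shift moves positions by a few bases only. The deposited lists give per peak a score, the fold enrichment over local background (a ratio), the -log10 of the p-value and of the q-value, and the summit. The columns were used as deposited, with no pooled replicates.

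Peaks on chromosomes 1 to 19 and X were ranked by -log10 p and merged into 123260 regions, with genes from GENCODE M21 basic. Non-overlap calls used regions with a peak in at least 4 libraries. limma 3.58.1 (R 4.3.3) was run on quantile-normalized log2 fold values of regions with a peak in all 8 libraries, without a pseudocount beyond that of MACS2, with Benjamini-Hochberg adjustment over all of them, and tested on simulated data, where quantile normalization shrank the largest simulated differences somewhat. Summit fragments and background were solved from fold and p, which succeeded for 100% of peaks. Single values were compared by two-sided exact permutation within the other factor (36 assignments, smallest p = 0.0556), so no such test can reach 0.05. Other software was Python 3.11.15, numpy 2.4.6, pandas 2.3.3, scipy 1.17.1, Biopython 1.88 and matplotlib 3.10.9. DiffBind, named in the notes, was not used here.

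Over the 21360 regions, deviations from group means of same-numbered libraries correlated at 0.540 to 0.696 in all 6 pairs of groups. The labels do not say what same-numbered libraries share. Replicate 1 was the deeper library in every group. Its background pileup was 1.16 against 0.482 in LSK+ WT and 1.82 against 0.962 in LSK+ XistΔ/Δ. It was 1.47 against 0.992 in LSK- WT and 3.87 against 1.18 in LSK- XistΔ/Δ. The source of the correlation was not tested. The block was therefore also fitted. The genes, lists and markers were chosen with earlier results of these data known. Named regions were each gene's promoter region, its strongest distal region and every region that did not overlap between groups or that limma called. The Il6ra intron 1 region, the region beyond the 3′ end of Il6ra, the Csf1r start and 3′ regions, the Csf2rb intron 1 region, the pair between Csf2rb2 and Csf2rb, the near Csf3r region and the second Il31ra region were named after their values were seen. The result for 1 gene on the receptor and stem cell marker lists is not reported here.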

Additional observations from a re-analysis of the deposited data

How the results depend on the processing

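Alternatives were lists of equal length, ranking by fold enrichment, a -log10 q minimum of 5, a peak covering at least 50% of its region, a promoter limit of 1 kb, leaving out each library and the replicate block, and for limma also median centring and log2 of -log10 p. The Csf1r intronic cell type difference was -30.9 points with equal lengths, -12.6 by fold rank and -14.6 to -9.18 with 1 library left out. Its genotype difference was -1.06 with equal lengths. For percentiles the replicate block restricts the permutations only, so these differences (-11.3 and 5.69) cannot change with it. The promoter median was -15.6 (equal lengths) and -21.5 (50% cover) for cell type and -0.817 (equal lengths) for genotype. With 1 library left out, counts of non-overlapping members were 1 to 4 with LSK- higher, where 7.3% to 14.8% of all regions were. With LSK+ higher they were 1 to 7 (4.24% to 16.1%) and with XistΔ/Δ higher 2 to 7 (6.86% to 16.4%). With equal lengths they were 3 with LSK+ higher (6.39%) and 0 with XistΔ/Δ higher (0.223%). By fold rank they were 2 with LSK- higher, 2 with LSK+ higher and 0 with XistΔ/Δ higher. With 50% cover they were 0 with LSK- higher and 4 with XistΔ/Δ higher. No share of all regions is given for fold rank and 50% cover, so those counts are not read as results about the members. The counts 6 and 9 come without LSK- WT replicate 2 and LSK+ WT replicate 2 and include regions in under 4 libraries. limma called 1 member with LSK- higher over regions in at least 6 libraries (0.964% of all regions) and 2 there with the replicate block (5.9%). With 1 library left out it called 0 to 1 with LSK- higher, or 0 to 2 with the block. No share of all regions is given for these fits, so their counts are not read as results about the members. With LSK+ higher limma called 0 to 1 over the settings, where 0.908% of all regions passed with all libraries and 7.12% with the block.

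For single promoters the sign of LSK- minus LSK+ turned for Csf1r with a 1 kb limit (11.7), Csf2ra by fold rank (4.15), Il6st by fold rank (0.940) and 50% cover (21.8), and with 1 library left out, where Csf2ra ranged from -1.12 to 0.681, Csf2rb2 from -26.4 to 1.39 and Il6st from -3.25 to 3.09. XistΔ/Δ minus WT turned with equal lengths for Csf1r (-1.06), Csf2ra (-2.01), Csf2rb (-2.83), Csf2rb2 (-3.53) and Csf3r (-0.575), by fold rank for Csf2ra (-1.45) and with 50% cover for Il6ra (-20.6). The replicate block with leaving out a library, and with regions in at least 6 libraries, was chosen after seeing the data. With the replicate block, all 4 same-numbered pairs also went one way for cell type at the Il3ra (5.79) and Il6ra (-9.17) promoters and for genotype at those of Csf2rb (15.7), Csf3r (15.3) and Il6st (8.32), as they did at the Csf1r intronic region in both comparisons, each at the smallest p of 0.125. The Il3ra promoter, which separated the genotypes without the block, also had 4 pairs of one sign. Depth limits weak peaks most: a region can be missing from the 29829 peaks of LSK+ WT replicate 2 and be open.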
